A study of Mus musculus with 8 samples.

Results

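Branched-chain amino acid catabolism was examined through 10 genes in neonatal cardiomyocytes (NCMs) of mice exposed to diesel exhaust before birth. The genes were chosen by symbol, from a list proposed with the comparison of diesel exhaust and filtered air in these data already known, so their differences and adjusted p-values are given below as a description. The list holds the transaminases Bcat1 and Bcat2, the subunits Bckdha, Bckdhb and Dbt of the branched-chain keto acid dehydrogenase complex, its kinase Bckdk and phosphatase Ppm1k, and the leucine enzymes Ivd, Mccc1 and Mccc2. All 10 were among the 27179 genes of the count table, and all 10 were among the 14966 genes with enough counts to be tested.

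RNA came from NCMs of 8 male C57Bl/6J neonates on postnatal day 0, with 1 heart for each library. The dams of 4 neonates breathed filtered air (FA replicates 2, 3, 4 and 6) and those of the other 4 breathed diesel exhaust (DE replicates 1, 3, 5 and 7) from the start of pregnancy until shortly before birth. Diesel exhaust was given in daytime sessions on weekdays and not continuously. The methods give an n of 3 without naming the hearts, so all 8 libraries were used. No transgene or deletion is given in the labels. Atria and vessels were trimmed off, and fibroblasts were reduced by letting them attach to plastic, which enriches cardiomyocytes without purifying them. The text does not state which hearts shared a litter, so p-values measure the spread between these hearts. The sample names carry the number 11 for the 4 FA libraries and DE replicates 1 and 7, and the number 12 for DE replicates 3 and 5. The meaning of this prefix is not given in the sources used here, and no FA library has prefix 12. Values are listed below in the order FA replicates 2, 3, 4 and 6 and DE replicates 1, 7, 3 and 5, so that the DE libraries with prefix 12 come last.

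Leucine, isoleucine and valine share the opening steps of their breakdown. A transaminase moves the amino group to 2-oxoglutarate, in the cytosol with Bcat1 and in mitochondria with Bcat2. The branched-chain keto acid dehydrogenase complex then removes the carboxyl group irreversibly, and it is switched off when Bckdk phosphorylates its E1 alpha subunit and on again when Ppm1k removes the phosphate. In the leucine branch, isovaleryl-CoA dehydrogenase (Ivd) and the biotin-dependent methylcrotonyl-CoA carboxylase (Mccc1 and Mccc2) carry the chain towards acetyl-CoA and acetoacetate. In adult heart muscle Bcat2 is the usual transaminase and Bcat1 is low, and the heart both oxidises these amino acids and reads leucine as a growth signal.

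The genes lie on several chromosomes of GRCm38.p6, the build of the mm10 alignments. On the minus strand are Bcat1 at chr6:144993835-145076157, Ppm1k at chr6:57506502-57535552, Bckdha at chr7:25629852-25658782, Mccc1 at chr3:35956292-36000694 and Mccc2 at chr13:99948532-100015639. On the plus strand are Bcat2 at chr7:45568967-45589710, Bckdk at chr7:127904073-127909664, Bckdhb at chr9:83925111-84124240, Dbt at chr3:116513070-116549981 and Ivd at chr2:118861959-118882909. In the GENCODE annotation of this build, 20.4% of the exon bases of Bcat2 overlap an exon of 0610005C13Rik on the other strand, 8.07% of those of Mccc1 overlap Mccc1os, and 2.99% of those of Bcat1 overlap Gm26666. The strand setting of the counting is not given in the sources used here, so reads of these partners cannot be told apart and the counts of Bcat1, Bcat2 and Mccc1 carry that uncertainty.

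The 250 bases upstream of 3 annotated starts are shown, those of Bcat1 and Mccc2 because these were the members called different between the groups, and that of Mccc1 because it encodes the partner subunit of Mccc2. RefSeq entries on GRCm38.p6 gave 12 start windows for 9 of the 10 genes. Sequences read 5′ to 3′ on the strand of the gene, and capitals mark matches on either strand to the E-box CACGTG, the GC box GGGCGG, the CCAAT box, the TATA box TATAAA, the ERR element TCAAGGTCA or the KLF element CCACCC.
Bcat1 (first of 2 starts, chr6:145076158-145076407, minus strand): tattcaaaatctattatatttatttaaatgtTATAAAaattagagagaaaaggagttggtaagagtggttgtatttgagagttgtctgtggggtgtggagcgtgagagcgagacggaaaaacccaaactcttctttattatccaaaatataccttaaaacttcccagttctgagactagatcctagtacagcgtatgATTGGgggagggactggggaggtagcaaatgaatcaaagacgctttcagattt
Mccc2 (chr13:100015640-100015889, minus strand): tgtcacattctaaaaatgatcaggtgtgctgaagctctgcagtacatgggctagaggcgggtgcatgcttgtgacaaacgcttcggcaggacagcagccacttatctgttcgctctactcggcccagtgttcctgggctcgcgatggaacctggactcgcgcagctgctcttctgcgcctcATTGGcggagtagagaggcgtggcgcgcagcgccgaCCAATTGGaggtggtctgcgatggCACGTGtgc
Mccc1 (chr3:36000679-36000928, minus strand): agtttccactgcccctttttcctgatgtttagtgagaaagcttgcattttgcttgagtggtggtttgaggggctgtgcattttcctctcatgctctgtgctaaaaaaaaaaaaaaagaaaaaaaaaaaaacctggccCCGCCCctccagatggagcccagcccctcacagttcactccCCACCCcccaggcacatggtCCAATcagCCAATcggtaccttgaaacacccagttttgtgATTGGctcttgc
The Bcat1 window held 5 CpG dinucleotides, 1 CCAAT match on the reverse strand at position -53 from the start and 1 TATAAA match at -219. The window of its other start held 9 CpG dinucleotides and none of the listed letters. The Mccc2 window held 18 CpG dinucleotides, an E-box at position -9 and 3 CCAAT matches, 2 of which overlap on opposite strands in the run CCAATTGG. The Mccc1 window held 2 CpG dinucleotides, 3 CCAAT matches, 1 GC box and 1 KLF element, and its last bases fall within the annotated span of the gene. Over all 32851 windows of this length the median was 6 CpG dinucleotides, and the share with a match was 6.02% for the E-box, 32.7% for the GC box, 33.8% for the CCAAT box, 12.4% for TATAAA, 0.387% for the ERR element and 28.1% for the KLF element. These matches describe letters in the windows.

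Libraries held between 17943024 and 39839737 counts. The sum of 13 cardiomyocyte markers ran from 77806 to 83959 CPM (counts per 1000000 counts of a library, after TMM scaling) in FA and from 68233 to 80032 CPM in DE, and none was at 0, with 11 of 13 lower in DE by their fold changes, Myh6 and Pln called lower and Myh7 called higher. The sum of 9 fibroblast markers was 2045 to 3532 CPM in FA and 3736 to 6284 CPM in DE, with all 9 higher in DE by their means, 3 of them past the thresholds (Col1a1, Dcn and Dpt) and none at 0. Endothelial markers summed to 1089 to 1429 CPM in FA and 1146 to 1709 CPM in DE, smooth muscle and pericyte markers to 1608 to 2181 and 1172 to 1579 CPM, and erythroid markers to 759 to 1881 and 1209 to 2022 CPM. Most of the smooth muscle and pericyte sum was Acta2 (mean 1151 CPM in FA and 746 CPM in DE) and Abcc9 (401 and 298 CPM). By their fold changes, 5 of the 9 smooth muscle and pericyte markers were higher in DE and 4 lower. Skeletal muscle markers, with Myod1 at 0, summed to 1037 to 1385 CPM in FA and 1120 to 1449 CPM in DE, and brown adipocyte markers to 283 to 442 and 270 to 542 CPM. Most of the skeletal muscle sum was Ckm (mean 1157 CPM in FA and 1222 CPM in DE), and most of the brown adipocyte sum was Fabp4 (318 and 380 CPM). Myog stayed at or below 0.169 CPM and Ucp1 at or below 1.98 CPM in every library. Leukocyte markers stayed at or below 26.7 CPM and hepatocyte markers, with Serpina1a at 0, at or below 12.3 CPM in every library. Outside the cardiomyocyte and fibroblast lists 3 markers were called, Itgam (leukocyte) and Slc4a1 (erythroid) higher and Cidea (brown adipocyte) lower. The libraries also differed in their trend with exon length, from a change in log2 CPM of -0.17 per doubling of length in DE replicate 5 to 0.16 in FA replicate 2.

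Among the 10 genes, Bcat1 and Mccc2 were called higher in DE, none was called lower and 8 were not called. The call needed an adjusted p of at most 0.05 in edgeR's quasi-likelihood test together with a difference of at least 25%, and 5.8% of all tested genes were called, with 3.58% higher and 2.22% lower in DE. The FA and DE libraries did not overlap for 2 of the 10 genes, against 14.7% of all tested genes. The median log2 fold change of the 10 was 0.06, with 7 positive and 3 negative, beside a median of 0.0037 over all tested genes. Because the list was proposed from this comparison, nothing is read from these counts.

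**Figure D1:**
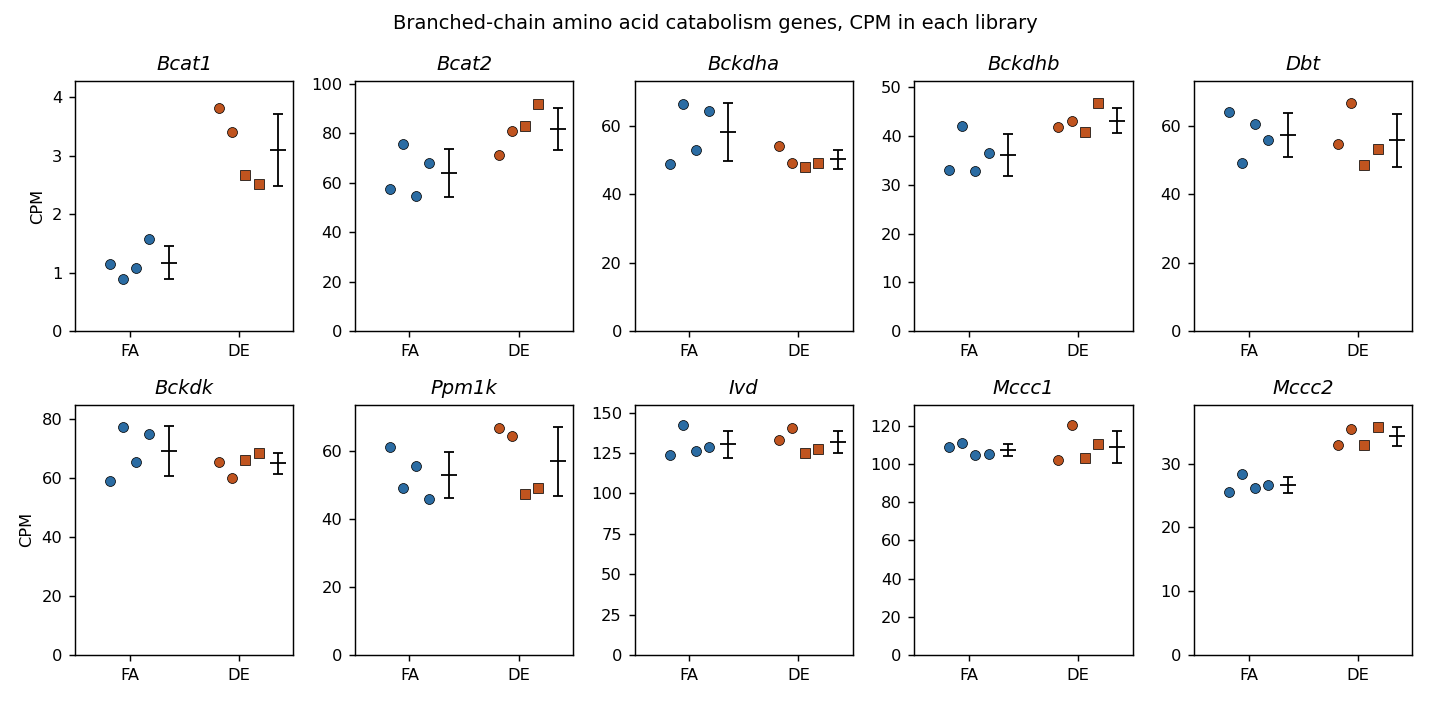
CPM of the 10 genes in each library (vertical axes start at 0), with FA in blue and DE in orange, circles for prefix 11, squares for prefix 12 and black bars for the mean ± SD of 4 libraries. The FA and DE libraries separate for Bcat1 and Mccc2 and overlap in the other 8 panels.

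Bcat1, the cytosolic transaminase, showed the largest difference of the list, and Bcat2, the mitochondrial one, was higher by a smaller amount that did not pass. The CPM of Bcat1 were 1.15, 0.897, 1.07 and 1.57 in FA and 3.81, 3.41, 2.67 and 2.52 in DE. All DE libraries lay above all FA libraries, and the DE libraries with prefix 11 were the highest. The mean ± SD over 4 libraries was 1.17 ± 0.287 CPM in FA against 3.10 ± 0.613 CPM in DE, a 2.62-fold difference with a 95% interval of 1.87 to 3.68 (log2 fold change 1.39, SE 0.22, edgeR adjusted p = 0.00711). These values rest on few fragments, with 43, 18, 19 and 32 counts in FA and 126, 64, 93 and 101 counts in DE. Without any 1 library the log2 fold change of Bcat1 stayed between 1.27 and 1.55 and passed each time.

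The fibroblast marker sum moved with Bcat1, at 3160, 2045, 2962 and 3532 CPM in FA and 6284, 4616, 4794 and 3736 CPM in DE. FA replicate 3 was lowest and DE replicate 1 highest on both measures. The highest FA library in the marker sum, replicate 6, had 1.57 CPM of Bcat1, and the lowest DE library, replicate 5, had 2.52 CPM at nearly the same marker sum. The part of fibroblast RNA in the Bcat1 difference was not tested, and in bulk RNA fewer cells of a type and less RNA per cell cannot be told apart.

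**Figure D2:**
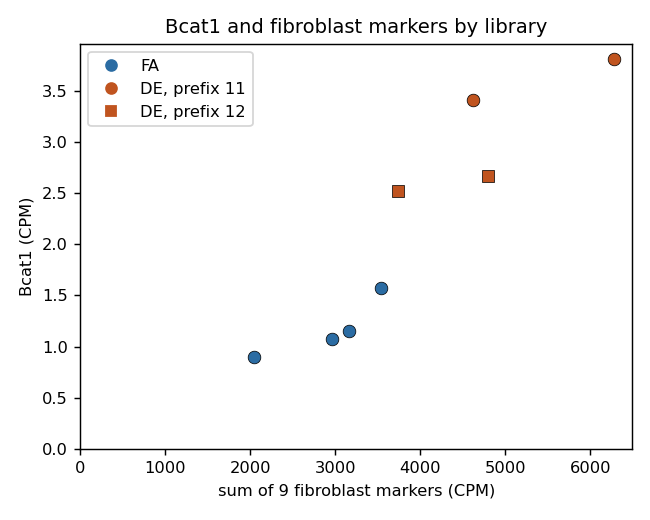
Bcat1 (CPM, vertical axis) against the summed CPM of 9 fibroblast markers (horizontal axis) in each of the 8 libraries, with FA in blue and DE in orange, circles for prefix 11 and squares for prefix 12. DE libraries are higher on both axes, and FA replicate 6 and DE replicate 5 sit next to each other on the marker axis at 1.57 and 2.52 CPM of Bcat1.

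Bcat2 measured 57.2, 75.4, 54.5 and 68.0 CPM in FA and 71.2, 80.9, 82.8 and 91.7 CPM in DE. The groups overlapped through FA replicate 3 and DE replicate 1, and the other 3 DE libraries lay above every FA library. Its mean was 63.8 ± 9.71 CPM in FA and 81.6 ± 8.40 CPM in DE (log2 fold change 0.36, SE 0.12, 95% interval 0.08 to 0.63, edgeR adjusted p = 0.107). Per kilobase of exon, Bcat1 made up 0.594%, 0.353%, 0.583% and 0.685% of the sum of both transaminases in FA and 1.57%, 1.24%, 0.950% and 0.811% in DE. The ranges did not overlap, and Bcat2 made up nearly all of the sum in every library.

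The 3 subunits of the dehydrogenase complex did not move one way, and none was called. Bckdha, the E1 alpha subunit that carries the regulatory phosphate, measured 49.0, 66.4, 52.9 and 64.3 CPM in FA and 54.2, 49.2, 48.0 and 49.1 CPM in DE. The DE libraries lay close together near the lowest FA library, and the groups overlapped (log2 fold change -0.21, SE 0.11, 95% interval -0.46 to 0.04, edgeR adjusted p = 0.263). With offsets for exon length and GC content, the log2 fold change of Bckdha was -0.36 (edgeR adjusted p = 0.0556). Bckdhb, the E1 beta subunit that pairs with it, measured 33.0, 42.2, 32.8 and 36.6 CPM in FA and 41.8, 43.1, 40.8 and 46.8 CPM in DE. FA replicate 3 lay within the DE range and the other FA libraries below it (log2 fold change 0.26, SE 0.11, 95% interval 0.02 to 0.49, edgeR adjusted p = 0.159). Dbt, the E2 core of the complex, measured 64.2, 49.2, 60.7 and 55.9 CPM in FA and 54.8, 66.8, 48.5 and 53.4 CPM in DE, and the groups overlapped over most of their range (log2 fold change -0.04, 95% interval -0.31 to 0.22, edgeR adjusted p = 0.853).

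The E1 subunits differed in sign, and their ratio separated the groups although neither gene did. Bckdhb per Bckdha, both in CPM per kilobase of exon, was 0.795, 0.747, 0.730 and 0.670 in FA and 0.910, 1.03, 1.00 and 1.12 in DE. Every DE library exceeded every FA library, with the widest gap between FA replicate 6 and DE replicate 5. This ratio and those of the other pairs were computed after the values of the genes were seen, and no test was run on them.

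**Figure D3:**
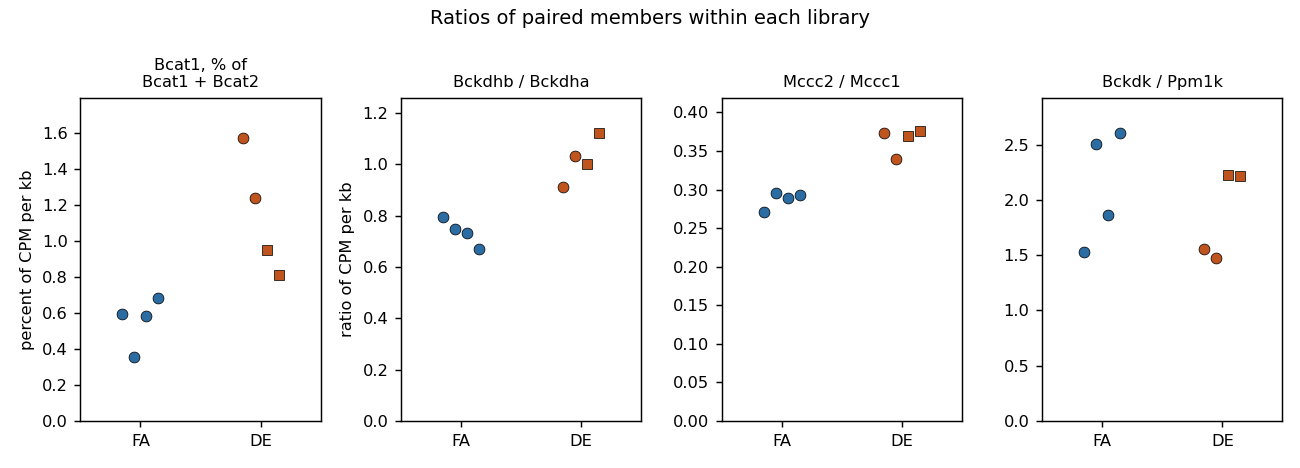
Ratios within each library, from CPM per kilobase of exon, for Bcat1 as a percentage of both transaminases, Bckdhb over Bckdha, Mccc2 over Mccc1 and Bckdk over Ppm1k (axes start at 0; FA blue, DE orange; circles prefix 11, squares prefix 12). The groups separate in the first 3 panels and overlap in the last, where DE replicates 1 and 7 lie at 1.56 and 1.48 and DE replicates 3 and 5 both at 2.22.

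The kinase and phosphatase that set the activity of the complex were not called in either direction. Bckdk measured 58.8, 77.2, 65.3 and 74.9 CPM in FA and 65.5, 59.9, 66.2 and 68.5 CPM in DE, and all DE libraries lay inside the FA range (log2 fold change -0.09, SE 0.11, 95% interval -0.32 to 0.15, edgeR adjusted p = 0.640). Ppm1k measured 61.3, 49.0, 55.8 and 45.9 CPM in FA and 67.0, 64.5, 47.4 and 49.1 CPM in DE. The DE libraries with prefix 11 lay above every FA library and those with prefix 12 within the FA range (log2 fold change 0.10, SE 0.14, 95% interval -0.20 to 0.41, edgeR adjusted p = 0.671). The log2 fold change of Ppm1k depended on the fit, at 0.01 without DE replicate 1, 0.31 with the prefix as a term and 0.27 with offsets for exon length and GC content, where the edgeR adjusted p of 0.0414 passed and the difference stayed under 25%. The ratio of Bckdk to Ppm1k per kilobase ran from 1.53 to 2.60 in FA and from 1.48 to 2.22 in DE, and the ratio of Bckdk to the mean of the 3 subunits from 0.769 to 0.876 in FA and from 0.706 to 0.871 in DE. Both ratios overlapped between the groups.

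In the leucine branch, Mccc2, the beta subunit of methylcrotonyl-CoA carboxylase, was higher in DE, while Ivd and the biotin-carrying subunit Mccc1 were at nearly the same level in both groups. Mccc2 measured 25.5, 28.4, 26.1 and 26.6 CPM in FA and 33.0, 35.4, 32.9 and 35.8 CPM in DE. The groups were apart and each was narrow, with means ± SD over 4 libraries of 26.7 ± 1.28 CPM for FA and 34.3 ± 1.54 CPM for DE. The difference was 1.29-fold with a 95% interval of 1.12 to 1.47 (log2 fold change 0.36, SE 0.09, edgeR adjusted p = 0.0391), just past both thresholds. With 1 library left out, Mccc2 was called without DE replicate 1 (edgeR adjusted p = 0.0456) and not called without any of the other 7, FA replicates 2, 3, 4 and 6 and DE replicates 3, 5 and 7, where the adjusted p ran from 0.0573 to 0.137 and the log2 fold change from 0.34 to 0.39.

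Mccc1 measured 108.9, 111.2, 104.5 and 104.9 CPM in FA and 102.1, 120.3, 102.9 and 110.3 CPM in DE. DE replicate 7 was the highest and the rest overlapped (log2 fold change 0.02, SE 0.09, 95% interval -0.18 to 0.22, edgeR adjusted p = 0.912). The ratio of Mccc2 to Mccc1 per kilobase was 0.271, 0.296, 0.289 and 0.293 in FA and 0.374, 0.340, 0.370 and 0.376 in DE, without overlap. Ivd measured 124.0, 142.4, 126.4 and 128.6 CPM in FA and 133.0, 140.5, 125.2 and 127.4 CPM in DE (log2 fold change 0.01, SE 0.09, 95% interval -0.18 to 0.21, edgeR adjusted p = 0.945). FA replicate 3 and DE replicate 7 were the highest of their groups for Ivd.

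Ordered by their level per kilobase in FA, the genes spanned from Mccc1 to Bcat1. Mccc1 stood highest at 43.7 ± 1.31 CPM per kilobase, and its FA libraries did not overlap those of the next gene. Ivd (35.6 ± 2.24), Bckdha (30.6 ± 4.49), Bcat2 (25.6 ± 3.90), Bckdhb (22.4 ± 2.71), Bckdk (19.8 ± 2.45) and Dbt (17.4 ± 1.97 CPM per kilobase) followed, and from Ivd to Dbt neighbours in this order overlapped in their FA libraries. Mccc2 (12.6 ± 0.601), Ppm1k (9.53 ± 1.24) and Bcat1 (0.140 ± 0.0343 CPM per kilobase) each stood apart from the gene before. In DE, Bcat1 reached 0.371 ± 0.0734 CPM per kilobase and remained the lowest of the list. The order by DE means differed in part, with Bcat2 at 32.8 ± 3.38 above Bckdhb at 26.7 ± 1.60 and Bckdha at 26.4 ± 1.45 CPM per kilobase.

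**Figure D4:**
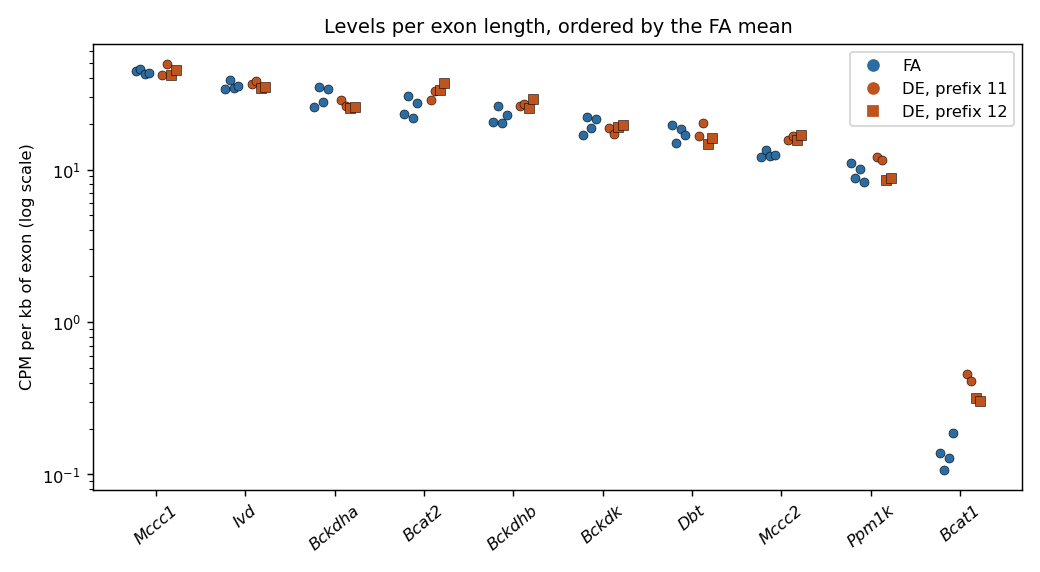
CPM per kilobase of exon (vertical log axis) of the 10 genes, ordered by FA mean, in each FA library (blue) and DE library (orange; circles prefix 11, squares prefix 12). Mccc1 leads at 43.7 CPM per kilobase in FA, and Bcat1 lies lowest in both groups.

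Since DE replicates 3 and 5 differ from all other libraries in the prefix of their names, the DE libraries of each prefix were compared in a model of 3 groups. None of the 10 genes was called between them, while 2.06% of all tested genes were. Without correction for exon length and GC content, Ppm1k had the smallest adjusted p, with a mean of 65.8 CPM for prefix 11 and 48.3 CPM for prefix 12 (log2 difference -0.45, SE 0.15, 95% interval -0.76 to -0.13, edgeR adjusted p = 0.107). Bcat1 averaged 3.61 CPM for prefix 11 and 2.59 CPM for prefix 12 (log2 difference -0.48, SE 0.24, edgeR adjusted p = 0.242), both above its FA mean of 1.17 CPM. Mccc2 averaged 34.2 and 34.4 CPM. After correction of every library for its dependence on exon length and GC content, the log2 difference was -0.08 for Ppm1k, -0.15 for Bcat1 and -0.10 for Mccc2, while that of Bckdha went from -0.09 to -0.42 (edgeR adjusted p = 0.0723), and again none of the 10 was called, beside 1.07% of the 13851 genes of that fit. In the libraries with prefix 11 alone, the log2 fold change of DE over FA was 1.62 for Bcat1, which was still called, and 0.35 for Mccc2, which was not (edgeR adjusted p = 0.142, and 0.0945 with the prefix as a term).

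The other enzymes and carriers of branched-chain amino acids were read from a list of 30 genes, all tested. Of these, Slc43a1 was called higher and Slc43a2 and Hlcs lower in DE, beside 3.58% and 2.22% of all tested genes. The other 27 were not called. The median log2 fold change of the 30 was -0.0045, with 14 positive and 16 negative. Slc43a1, a carrier that brings branched-chain amino acids across the cell membrane, had 2.81, 2.64, 3.78 and 4.72 CPM in FA and 7.20, 5.28, 6.45 and 4.99 CPM in DE (log2 fold change 0.79, SE 0.21, edgeR adjusted p = 0.0475). Slc43a2, a related carrier, had 9.09, 8.97, 8.41 and 7.28 CPM in FA and 5.08, 6.82, 6.00 and 4.86 CPM in DE (log2 fold change -0.58, SE 0.15, edgeR adjusted p = 0.0426). The fibroblast marker sum moved with Slc43a1, with FA replicate 3 lowest and FA replicate 6 highest of FA and DE replicates 1, 3, 7 and 5 in falling order on both measures, and its part in the difference was not tested. The groups did not overlap for either carrier, and their differences had opposite signs. With 1 library left out, Slc43a1 was called only without FA replicate 6 and Slc43a2 only without FA replicate 6 or DE replicate 7, with edgeR adjusted p-values of up to 0.153 and 0.134 without the others. Neither was called with the prefix as a term (adjusted p = 0.0777 and 0.145) or with prefix 11 only (0.105 and 0.167). Slc3a2 and Slc7a5, which together form the main exchanger for large neutral amino acids, had log2 fold changes of 0.48 (SE 0.17, edgeR adjusted p = 0.117) and 0.27 (SE 0.13, edgeR adjusted p = 0.211), and Slc7a6 of 0.02.

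Hlcs, the ligase that attaches biotin to Mccc1 and the other biotin carboxylases, had 11.9, 10.5, 10.9 and 9.25 CPM in FA and 8.05, 7.20, 7.43 and 6.81 CPM in DE. All DE libraries lay below all FA libraries (log2 fold change -0.53, SE 0.12, edgeR adjusted p = 0.0308), but Hlcs was called only without FA replicate 6 or DE replicate 1 when 1 library was left out, with an adjusted p of up to 0.114 otherwise. Nor was Hlcs called with the prefix as a term (edgeR adjusted p = 0.107) or with prefix 11 only (0.140). Btd, which recycles biotin, was not called (log2 fold change 0.22, SE 0.14). Dld, the E3 subunit shared with the pyruvate and 2-oxoglutarate dehydrogenase complexes, averaged 509.7 ± 24.8 CPM in FA and 440.8 ± 40.7 CPM in DE, with no overlap but no call (log2 fold change -0.21, SE 0.10, edgeR adjusted p = 0.199).

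Further along, and outside the 10 members, no gene of the individual branches or of the route from propionyl-CoA to succinyl-CoA was called. At the end of the leucine branch, the hydratase Auh had a log2 fold change of -0.20. In the isoleucine branch, Acat1, the thiolase that closes it, averaged 489.7 ± 17.8 CPM in FA and 429.0 ± 19.5 CPM in DE with no overlap (log2 fold change -0.19, SE 0.09, edgeR adjusted p = 0.188), and Echs1 and Hsd17b10 had 0.02 and 0.12. The valine enzymes Hibch, Hibadh and Aldh6a1 had -0.15, -0.04 and -0.26. Aldh6a1 averaged 124.4 CPM in DE with prefix 11, 83.8 CPM in DE with prefix 12 and 124.2 CPM in FA. Among the propionyl-CoA genes, Pccb, Mut and Mmadhc had -0.09, 0.01 and -0.08 on the same log2 scale. Mmab and Mcee of that route, named after their values were seen, both had 0.24, with no overlap between the groups for Mmab (18.1 to 21.7 CPM in FA and 22.0 to 25.7 CPM in DE) and overlap for Mcee.

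**Figure D5:**
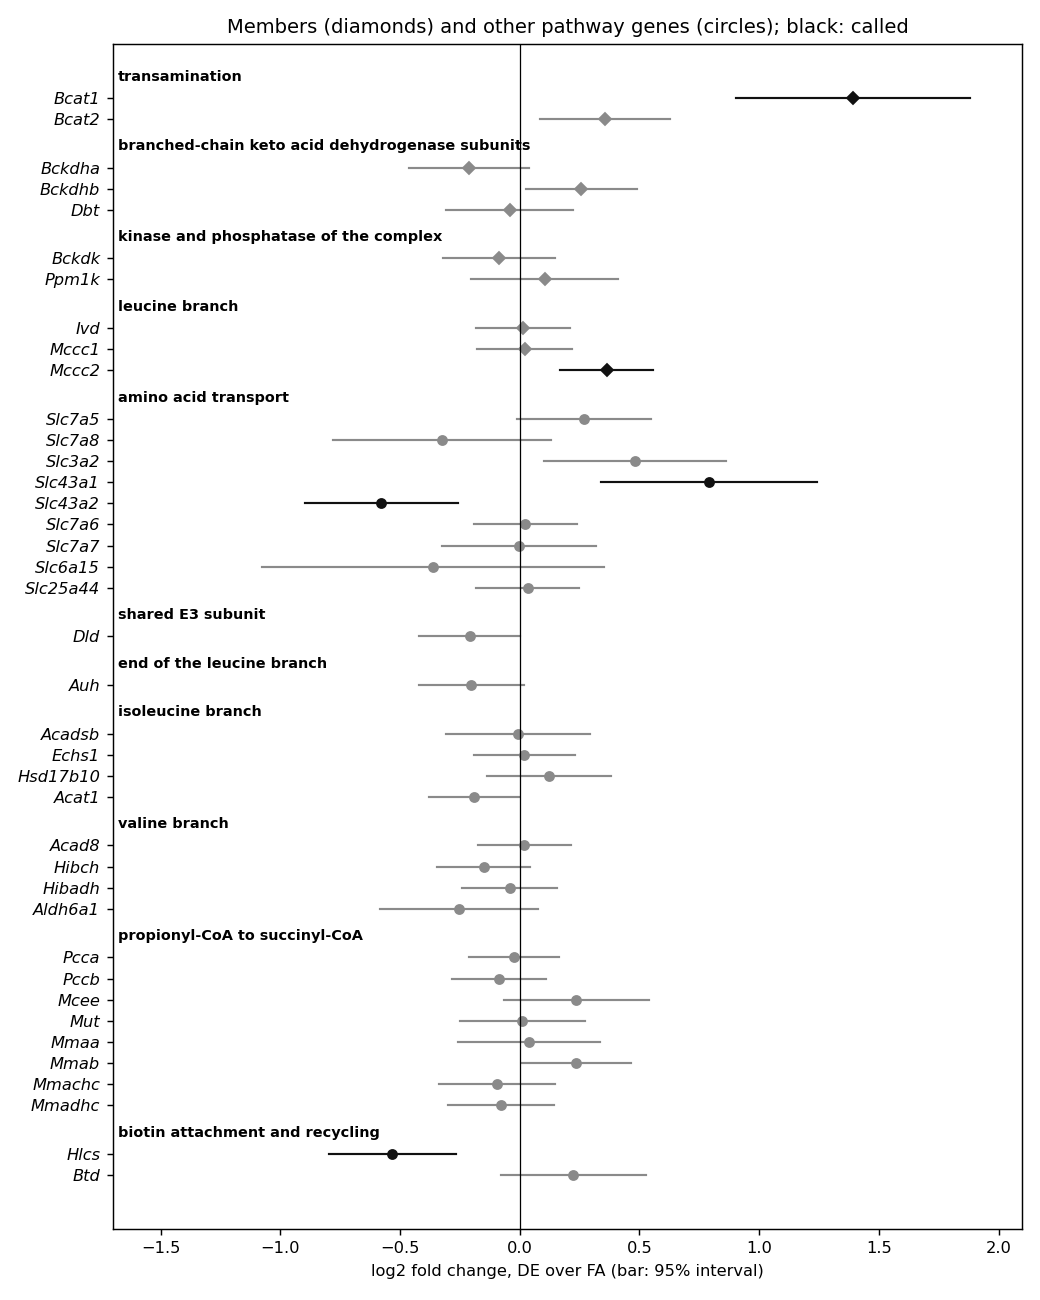
Log2 fold change of DE over FA (horizontal axis) with 95% intervals from edgeR for the 10 genes (diamonds) and the other pathway genes reported here (circles), grouped by step, with called genes in black. Bcat1, Mccc2 and Slc43a1 are called to the right of 0 and Slc43a2 and Hlcs to the left, and no circle of the leucine, isoleucine, valine or propionyl-CoA steps is called.

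The pyruvate and 2-oxoglutarate dehydrogenase complexes are built like the branched-chain complex and were read beside it. None of their 6 subunits was called, with 2 at an unadjusted edgeR p under 0.05, as were 25.6% of all tested genes, and a median log2 fold change of -0.21. Ogdh, the E1 of the 2-oxoglutarate complex, came nearest at -0.42 (SE 0.12, edgeR adjusted p = 0.0648), and Pdha1 and Pdhb had -0.27 and -0.04. Of 7 kinases and phosphatases of pyruvate dehydrogenase, only Pdk4 was called, beside 5.8% of all tested genes. Pdk4 had 411.1, 338.4, 390.5 and 326.6 CPM in FA and 126.6, 180.3, 105.5 and 112.7 CPM in DE (log2 fold change -1.48, SE 0.16, edgeR adjusted p = 0.000817). Its relative Bckdk had a log2 fold change of -0.09 with a 95% interval of -0.32 to 0.15. Pdk1 and Pdk2 had 0.35 and -0.25 and were not called.

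Of 3 other carboxylases that carry biotin, Pcx and Acacb were called in opposite directions, beside 5.8% of all tested genes called. Pcx, which makes oxaloacetate from pyruvate, averaged 15.6 ± 1.35 CPM in FA and 24.97 ± 2.46 CPM in DE (log2 fold change 0.68, SE 0.11, edgeR adjusted p = 0.00811). Acacb, the mitochondrial acetyl-CoA carboxylase, averaged 313.4 ± 35.8 CPM in FA and 152.6 ± 14.8 CPM in DE (log2 fold change -1.04, SE 0.11, edgeR adjusted p = 0.000686), and Acaca had -0.02.

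None of 5 transcriptional regulators linked to these genes was called, with 1 at an unadjusted edgeR p under 0.05, against 25.6% of all tested genes. That 1 was Klf15, an activator of branched-chain amino acid catabolism in muscle and heart, which is named here after its values were seen. Klf15 measured 10.7, 14.3, 11.3 and 8.75 CPM in FA and 28.9, 19.5, 14.5 and 15.6 CPM in DE, with the lowest DE library just above the highest FA library (log2 fold change 0.80, SE 0.22, edgeR adjusted p = 0.0565). Ppargc1a, Esrra and Myc had log2 fold changes of -0.26, -0.20 and 0.07. Of 8 genes that sense leucine or form mTORC1, only Mtor was called, beside 5.8% of all tested genes. Mtor was lower in DE, with 95.1 ± 14.2 CPM in FA against 64.5 ± 4.55 CPM in DE (log2 fold change -0.56, SE 0.12, edgeR adjusted p = 0.0231). Sesn1 and Rheb had 0.38 and 0.02. Sesn1 averaged 140.2 CPM in DE with prefix 11, 87.3 CPM in DE with prefix 12 and 87.3 CPM in FA. Mtor was not called without FA replicate 2, FA replicate 4, DE replicate 3 or DE replicate 5, with an edgeR adjusted p of up to 0.0829, nor with the prefix as a term (0.0757) or with prefix 11 only (0.112).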

How the data were processed

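RNA-seq of NCMs was available for 8 male neonates (4 FA, 4 DE). The authors prepared stranded poly-A libraries, aligned reads to mm10 with Tophat and the Ensembl v67 transcriptome, marked PCR duplicates without removing them and ran featureCounts, and they deposited raw counts per Entrez gene without normalization. Strand setting, treatment of reads with several hits, counting annotation and whether marked duplicates were counted are not given in the sources used here. Where duplicates were counted, counts are not all independent molecules.

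Entrez IDs were given symbols through RefSeq genes of GRCm38.p6 (25275 of 27179 matched, Mut through a synonym). Genes passing filterByExpr of edgeR 4.0.16 in R 4.3.3 (minimum count 10) were normalized with TMM and fitted by glmQLFit and glmQLFTest, exposure as the only term, with Benjamini-Hochberg adjustment over 14966 genes. CPM use the same factors, and levels per kilobase use merged GENCODE M21 exons. The members and all lists were chosen with earlier results of these data known, and lists were written from general knowledge. All 10 members were named, and of other lists every called gene and up to 3 genes of highest mean CPM, of which 1 gene is not reported here. Of 8 erythroid markers 7 were matched. The fit was tested on simulated counts. Within each group no 2 libraries agreed within sampling noise, the closest pair (FA replicates 2 and 4) having a chi-square of 5.37 per gene. Alternatives were DESeq2 1.42.0, the likelihood ratio test, limma-voom (limma 3.58.1), a 25% difference built into the test, other scalings and filters, the prefix as a term or prefix 11 alone, and each library left out. Offsets from splines of exon length and GC (5 degrees of freedom, 92.55% of tested genes) and the comparison of DE prefixes were added after the data were seen.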

Additional observations from a re-analysis of the deposited data

Results flagged for a closer look

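In none of the 20 groups of 4 libraries of the 10 genes did 1 library lie far from the rest. Among the other genes read here, the highest or lowest library stood far from the rest of its group in 4 cases of 138 groups checked in all, where chance alone gives about 1 in 20. Slc25a44, a mitochondrial carrier of branched-chain amino acids, measured 28.9 CPM in FA replicate 2, with the nearest FA library at 27.4 CPM. Acat1 measured 458 CPM in DE replicate 5, with the nearest DE library at 422.1 CPM. Ogdh measured 1061 CPM in FA replicate 6, with the nearest FA library at 817.1 CPM. Sesn2, a leucine sensor, measured 24.6 CPM in DE replicate 5, with the nearest DE library at 20.4 CPM.

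Between the DE libraries of prefix 12 and prefix 11, 4 of the 69 genes read here passed the thresholds in the model of 3 groups by edgeR, beside 2.06% of all tested genes, and all 4 were lower with prefix 12. The log2 difference was -0.57 for Aldh6a1 of the valine branch, -1.89 for Pdpr, the regulatory subunit of pyruvate dehydrogenase phosphatase, -0.68 for Sesn1 and -1.15 for Sesn3, both sestrins. With offsets for exon length and GC content, where 1.07% of all tested genes were called, Pdpr (-1.76) and Sesn1 (-0.62) were still called, and Aldh6a1 (-0.47, adjusted p = 0.0663) and Sesn3 (-0.71, adjusted p = 0.0562) were not. No FA library carries prefix 12, so the prefix was compared within DE alone.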

How the results depend on the processing

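No paired analysis was run, because FA and DE neonates came from different dams and the labels name no pairs. Bcat1 was called under all 20 alternatives, with a log2 fold change of 1.27 to 1.62 and an adjusted p of 2.34e-06 to 0.0341. Mccc2 was called under 8 of 20, with 0.29 to 0.43 and an adjusted p of 0.00231 to 0.749. Members called were 1 with the 25% difference built in, without a filter, with the prefix as a term, with prefix 11 only and with length and GC offsets (Mccc2 at 0.29, adjusted p = 0.026, under 25%), and 1 to 2 with a library left out. The other members were called under none, although the adjusted p of Ppm1k passed with offsets (0.0414, under 25%), and the sign changed under some alternatives for Dbt, Ivd and Mccc1. Over all genes, 868 were called, 1633 by DESeq2, 1603 by the likelihood ratio test, 114 with the difference built in, 448 with the prefix as a term, 260 with prefix 11 only, 1501 with offsets and 237 to 1168 with a library left out. Of calls, 61.8% were higher in DE, 78.7% under library totals alone, which move the median of all genes to 0.08, 38.6% with the difference built in and 49.7% without FA replicate 3. Other pathway genes called were 0 with the difference built in, with the prefix as a term and with prefix 11 only, and 0 to 3 with a library left out. Of the 29 genes of related complexes, regulators, carboxylases and leucine sensing, 4 were called, beside 5.8% of all tested genes. The count was 8 by DESeq2 (10.9% of all), 8 by the likelihood ratio test (10.7%), 2 with the difference built in (0.762%), 9 with offsets (10.8%) and 3 to 7 with a library left out. The median log2 fold change of the members was 0.13 under library totals, 0.16 with the prefix as a term, 0.15 with prefix 11 only and 0.0034 to 0.11 with a library left out (lowest without DE replicate 7), and that of other pathway genes 0.067 under library totals alone. The causes were not tested. Of the members, Bcat1 had the fewest counts, at 18 to 126 counts per library.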
